A study of Mus musculus with 9 samples.

Results

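The genes described here were 10 markers and regulators of dendritic cell subsets: Xcr1, Clec9a, Batf3, Irf8, Irf4, Zbtb46, Flt3, Cd209a, Siglech and Wdfy4. They were taken by symbol, and all 10 matched an Entrez identifier among the 18755 genes of the deposited count table. Whole 4T1 tumors were sequenced, so each value is an average over cancer cells, stroma and infiltrating leukocytes. 4T1 is a mouse mammary carcinoma line of BALB/c origin, and 1000000 cells were injected into mammary fat pad number 9 of female BALB/c mice aged 6 to 10 weeks. From day 15 after injection, mice received the focal adhesion kinase (FAK) inhibitor BI 853520 (abbreviated BI) at 50 mg/kg or the 0.5% Natrosol vehicle alone for 5 days. There were 3 vehicle-treated tumors (replicates 1 to 3) and 6 BI-treated tumors (replicates 4 to 9), each with 1 library, and only tumors with sufficient RNA quality had been kept by the study. The labels give no sequencing batch and do not state that each tumor came from a separate mouse, so p-values measure the spread between these tumors. Library totals ran from 16931607 to 33850245 counts, and values are given as CPM (counts per 1000000 counts in the library, TMM-normalized), on which scale 1 count was worth 0.0295 to 0.0591 CPM. The members had between 20 and 3136 counts per tumor, and none was near the floor of 3 counts. Of epithelial genes, the keratins Krt8 (478 ± 58.3 CPM) and Krt18 (578 ± 57.7 CPM, SD, n = 3) were abundant in vehicle-treated tumors, while Krt5, Krt14 and Cldn7 were each below 1 CPM on average.

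Dendritic cells capture antigen and present it to T cells. Conventional dendritic cells of type 1 (cDC1) depend on the transcription factors BATF3 and IRF8, carry the chemokine receptor XCR1 and the dead-cell receptor CLEC9A, and are known for presenting tumor antigen to CD8 T cells. Conventional dendritic cells of type 2 (cDC2) rely on IRF4 and present mainly to CD4 T cells, and plasmacytoid dendritic cells (pDC) are known as producers of type I interferon. FLT3 is the growth factor receptor that all of these lineages need, and ZBTB46 is a transcription factor of the conventional lineages that endothelial cells also use.

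After BI treatment, 8 of the 10 genes were higher: Xcr1, Clec9a, Batf3, Irf8 and Wdfy4 of the cDC1 program, Irf4 and Cd209a of the cDC2 program, and Flt3. They rose between 1.37-fold (Irf8) and 2.53-fold (Xcr1). The pDC receptor gene Siglech and the conventional lineage factor Zbtb46 did not pass the test. Calls came from the quasi-likelihood F test of edgeR, fitted to the whole table, at p of at most 0.05 after Benjamini-Hochberg adjustment across 13966 genes (edgeR adjusted p), and SE stands for the standard error of the log2 fold change in that fit. In it, 14.6% of all genes tested rose, 14.1% fell, and 28.7% were called in either direction. No member fell, also at an unadjusted p of at most 0.05 and with DESeq2 or limma-voom. The median log2 fold change was 0.92 over the 10 members and -0.00371 over all genes tested. At the cutoffs of the study (unadjusted p of at most 0.05 and a 1.5-fold change), 7 members rose, Irf8 being the one that dropped out, where 9.57% of all genes rose and 3.57% fell. The ranges of the 2 groups were apart in each of the 8 genes, with the lowest treated tumor higher than the highest control, an order found in 14.1% of all genes tested, while the opposite order was found in 14% of them and in no member. In bulk tumors, a larger number of dendritic cells and more RNA per cell cannot be told apart.

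**Figure D1:**
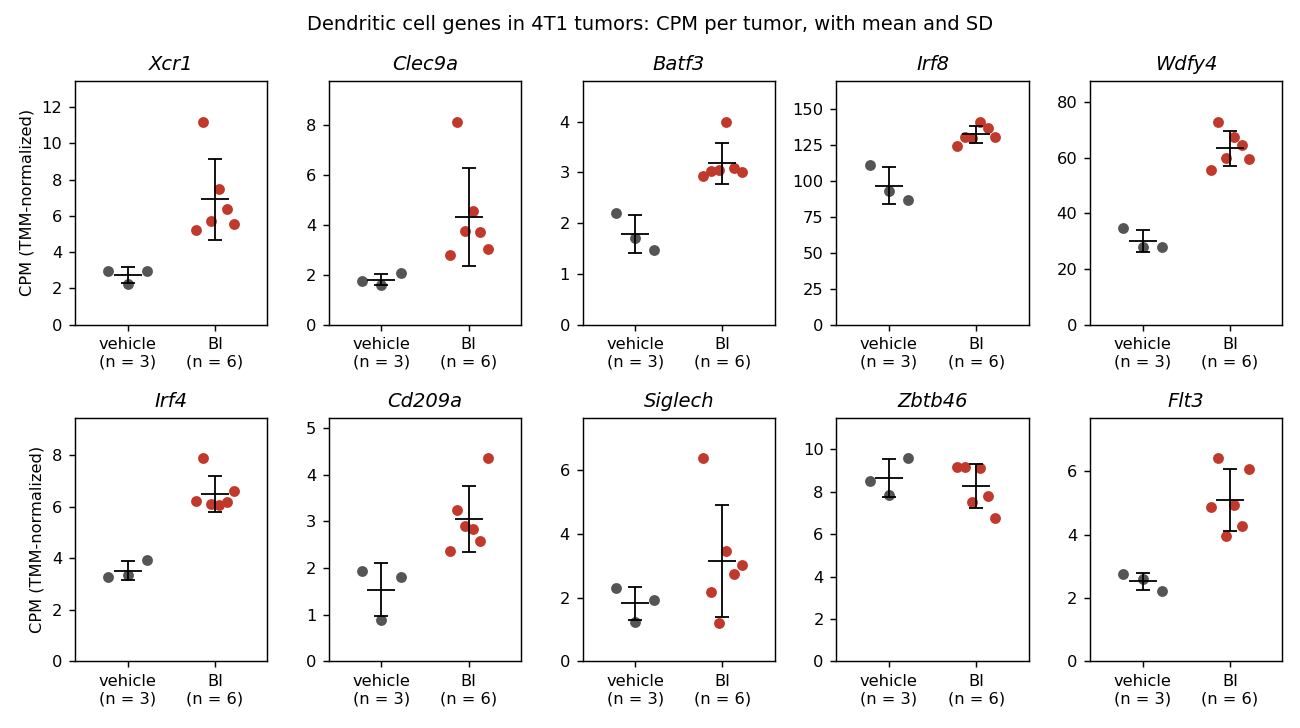
Expression of the 10 genes in CPM (vertical axes, starting at 0, scaled per gene), with 1 point per tumor and the mean ± SD for 3 vehicle-treated and 6 BI-treated tumors. The groups do not overlap in any gene but Siglech and Zbtb46, and a single BI-treated tumor is set apart above the others for Xcr1, Clec9a, Irf4 and Batf3.

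Xcr1 (Entrez gene 23832, on the minus strand of mm9, chr9:123761436-123771246) encodes the receptor for the chemokine XCL1, and is the most restricted of the cDC1 markers in mice. Its expression was 2.98, 2.24 and 2.97 CPM in vehicle replicates 1, 2 and 3, and ranged from 5.24 to 11.2 CPM with a median of 6.04 CPM in BI-treated tumors. BI replicate 5 was highest and all 6 BI-treated tumors were above the vehicle-treated ones. This was a log2 fold change of 1.34 (SE 0.251, edgeR adjusted p = 0.00231), the largest of the members. Clec9a (Entrez gene 232414, plus strand, chr6:129358880-129374780) encodes a C-type lectin that binds actin filaments exposed by dead cells. It had 1.74, 1.61 and 2.06 CPM in vehicle replicates 1, 2 and 3, against 2.79 to 8.13 CPM with a median of 3.74 CPM in BI-treated tumors. BI replicate 5 again stood highest and the groups were apart. Clec9a thus had a log2 fold change of 1.25 (SE 0.327, edgeR adjusted p = 0.0144). Without vehicle replicate 1 or 2, the log2 fold change of Clec9a was 1.22 or 1.17, with an adjusted p of 0.0532 or 0.055 in the same edgeR test. The exons of Clec9a overlap those of Clec1b on the same strand in the GENCODE annotation of mm9, and Clec1b itself was not among the genes tested.

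Wdfy4 (Entrez gene 545030, minus strand, chr14:33772733-33998694) encodes a protein that cDC1 need to cross-present cell-associated antigen, and B cells express it as well. Vehicle replicates 1, 2 and 3 had 34.8, 27.9 and 27.8 CPM, and BI-treated tumors had 55.7 to 73.0 CPM with a median of 62.3 CPM. The lowest BI-treated tumor was thus well above the highest vehicle-treated one, and the spread within each group was small. Of the members, Wdfy4 had the smallest edgeR adjusted p, 3.84e-05, at a log2 fold change of 1.07 (SE 0.101).

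Of the 2 transcription factors that specify cDC1, Batf3 (Entrez gene 381319, plus strand, chr1:192922293-192932822) encodes a basic leucine zipper protein that pairs with JUN and IRF factors on DNA. It had 2.20, 1.70 and 1.47 CPM in vehicle replicates 1, 2 and 3 and 2.93 to 4.00 CPM, median 3.03 CPM, in BI-treated tumors. Only BI replicate 7 departed from a narrow band of values in the treated group. The log2 fold change of Batf3 was 0.84 (SE 0.194, edgeR adjusted p = 0.00761). Irf8 (Entrez gene 15900, plus strand, chr8:123260258-123280594) is needed by cDC1 and pDC, and is also used by monocytes, macrophages and B cells. Vehicle replicates 1, 2 and 3 had 110.8, 92.6 and 86.3 CPM, and BI-treated tumors 124 to 141 CPM with a median of 130.3 CPM. The groups were apart, but the change was the smallest of the 8, with a log2 fold change of 0.45 (SE 0.0766, edgeR adjusted p = 0.00124).

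Of the 2 members tied to cDC2, Irf4 (Entrez gene 16364, plus strand, chr13:30841095-30858796), a factor of cDC2 that activated T cells and plasma cells also express, had 3.25, 3.35 and 3.95 CPM in vehicle replicates 1, 2 and 3. In BI-treated tumors it ranged from 6.07 to 7.87 CPM with a median of 6.20 CPM, and 5 of the 6 values lay within a narrow band below BI replicate 5. Irf4 had a log2 fold change of 0.88 (SE 0.138, edgeR adjusted p = 0.000762). Cd209a (Entrez gene 170786, minus strand, chr8:3743395-3748984) encodes a mouse relative of the lectin DC-SIGN, found on cDC2 and on monocyte-derived cells. It had 1.92, 0.894 and 1.80 CPM in vehicle replicates 1, 2 and 3 and 2.36 to 4.35 CPM, median 2.86 CPM, in BI-treated tumors. Vehicle replicate 2 was the lowest of all tumors and BI replicate 9 the highest. The log2 fold change was 0.97 (SE 0.273, edgeR adjusted p = 0.0207), and without vehicle replicate 2 it was 0.70 with an adjusted p of 0.0747 from the same test. Reads that fit several CD209 paralogs equally well had been dropped before counting, because only unique alignments were kept.

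Siglech (Entrez gene 233274, plus strand, chr7:63023548-63034295), a sialic acid-binding lectin gene used to mark pDC in mice, gave the most uneven values. Vehicle replicates 1, 2 and 3 had 2.29, 1.25 and 1.91 CPM, and BI-treated tumors had 1.21 to 6.38 CPM with a median of 2.88 CPM. The highest value came from BI replicate 4 and the lowest of all 9 from BI replicate 6, so that the groups overlapped, with 4 of 6 BI-treated tumors above every vehicle-treated one. Siglech had a log2 fold change of 0.80 with an SE of 0.419 (edgeR adjusted p = 0.173).

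The receptor gene Flt3 (Entrez gene 14255, minus strand, chr5:148142317-148212065) had 2.75, 2.59 and 2.24 CPM in vehicle replicates 1, 2 and 3 and 3.96 to 6.41 CPM, median 4.90 CPM, in BI-treated tumors. BI replicates 5 and 9 were highest and no vehicle-treated tumor reached the lowest treated one. Its log2 fold change was 1.01 (SE 0.188, edgeR adjusted p = 0.00218). Its ligand gene Flt3l had 9.23 ± 1.92 CPM (SD, n = 3) in vehicle-treated and 12.2 ± 1.90 CPM (SD, n = 6) after BI, and its log2 fold change was 0.40 (SE 0.160, edgeR adjusted p = 0.0775). Zbtb46 (Entrez gene 72147, minus strand, chr2:181122467-181194131) was the member with the smallest difference between the groups. It had 8.52, 7.83 and 9.57 CPM in vehicle replicates 1, 2 and 3 and 6.78 to 9.17 CPM, median 8.47 CPM, in BI-treated tumors. The ranges lay on top of each other, with 3 of 6 BI-treated tumors below every vehicle-treated one and vehicle replicate 3 highest. The log2 fold change was -0.07 (SE 0.126, edgeR adjusted p = 0.734).

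Because BATF3, IRF4 and IRF8 bind DNA at composite sites, the 250 bases before each RefSeq start of the members were searched on both strands (11 promoters, 2 of them of Irf8, build GRCm38.p6). The motifs were the interferon-stimulated response element (GAAA, any 2 bases, GAAA), the ETS-IRF element (GGAA, any 2 bases, GAAA), the AP-1 core (TGANTCA), an AP-1-IRF element (GAAA directly followed by the AP-1 core), its spaced form (TTTC, any 4 bases, then the AP-1 core) and a PU.1 site (GAGGAAGT). Both AP-1-IRF forms contain the AP-1 core, and GAAA repeats can match the first pair of motifs in overlapping places. Among 32851 promoters of this length, the interferon-stimulated element was found in 2.98%, the ETS-IRF element in 2.30%, the AP-1 core in 6.75%, the AP-1-IRF element in 0.10%, its spaced form in 0.0974% and the PU.1 site in 2.44%. Of the 11 stretches taken as member promoters, only that of Zbtb46, a gene that did not pass the test, held a match. It was an AP-1-IRF element between 61 and 51 bases before the start, in capitals below, with the AP-1 core inside it. The Zbtb46 stretch ends in a run of pyrimidines and CAG, letters that also end introns before an exon. Whether the start used is the first of the gene was not tested. The match may thus lie inside Zbtb46 and not in its promoter. The promoters of Xcr1 and Clec9a, the pair whose values ran closest together, held none of these letter strings and are shown for comparison. The stretches are chr9:123862030-123862279 (minus strand) for Xcr1, chr6:129408612-129408861 (plus strand) for Clec9a and chr2:181424389-181424638 (minus strand) for Zbtb46, all from RefSeq and on GRCm38.p6, unlike the mm9 gene positions above. A match is a description of the letters, and its absence says nothing about binding.
Xcr1: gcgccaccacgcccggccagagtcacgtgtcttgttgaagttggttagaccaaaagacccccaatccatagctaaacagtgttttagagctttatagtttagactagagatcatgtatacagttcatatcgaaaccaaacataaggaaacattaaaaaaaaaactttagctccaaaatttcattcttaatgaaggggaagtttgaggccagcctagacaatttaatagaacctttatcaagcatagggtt
Clec9a: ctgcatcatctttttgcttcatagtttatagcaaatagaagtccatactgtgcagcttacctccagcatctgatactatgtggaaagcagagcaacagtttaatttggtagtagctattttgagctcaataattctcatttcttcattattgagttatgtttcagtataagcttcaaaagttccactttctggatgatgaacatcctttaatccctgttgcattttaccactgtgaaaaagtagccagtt
Zbtb46: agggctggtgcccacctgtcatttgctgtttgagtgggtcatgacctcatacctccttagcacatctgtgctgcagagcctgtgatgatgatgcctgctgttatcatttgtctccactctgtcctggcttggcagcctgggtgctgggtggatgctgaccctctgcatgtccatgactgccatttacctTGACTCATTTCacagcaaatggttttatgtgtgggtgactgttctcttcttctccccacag

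The members did not all peak in the same tumor. BI replicate 5 had the highest value of 5 members (Xcr1, Clec9a, Irf4, Flt3 and Wdfy4), with Clec9a 2.12 and Xcr1 2.01 log2 units above the mean of the vehicle-treated tumors. BI replicate 7 was highest for Batf3 and Irf8, BI replicate 9 for Cd209a, BI replicate 4 for Siglech and vehicle replicate 3 for Zbtb46. BI replicate 4, highest for Siglech, had the lowest treated values of Xcr1, Clec9a, Batf3, Irf8, Wdfy4 and Cd209a. Among the 13965 other genes tested, the one whose centered log2 CPM profile over the 9 tumors was nearest to that of Clec9a was Xcr1, with a root mean square difference of 0.159 log2 units where Clec9a itself varied by 0.675. The next were Dnase1l3 (0.233), which encodes an extracellular nuclease, and Gpr82 (0.272). Nearest to Cd209a were Lat (0.164), an adaptor of T cell receptor signaling, 4930599N23Rik (0.171) and Kbtbd11 (0.197). Nearest to Siglech were Irx5 (0.267), Fcrla (0.269), a B cell gene, and Gfra1 (0.283). These distances describe the same 9 libraries and include the difference between the groups.

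**Figure D2:**
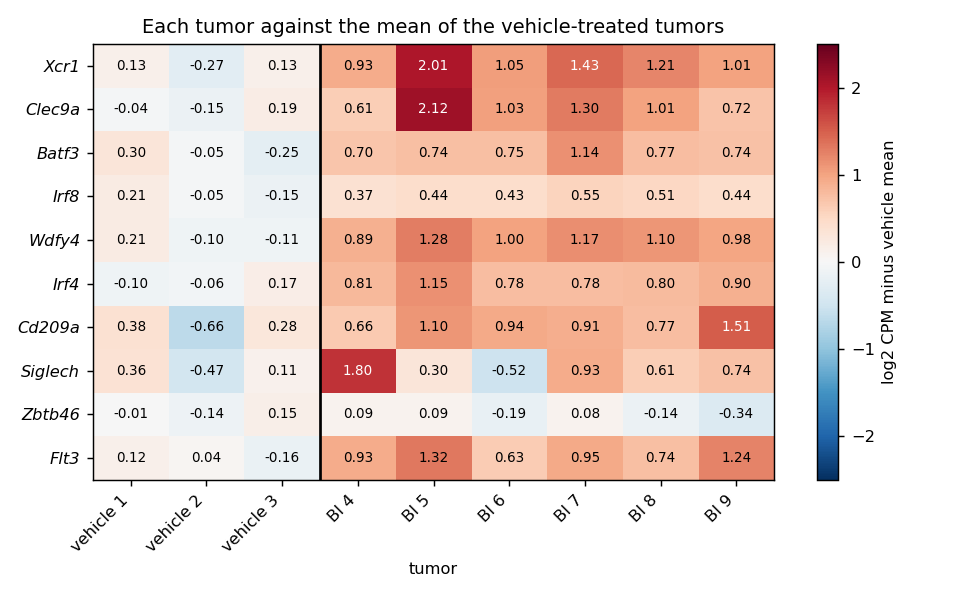
Log2 CPM of each gene (rows) in each tumor (columns) minus the mean of the 3 vehicle-treated tumors, with the values printed and the color scale in log2 units. The treated columns are positive for 8 genes, strongest for Xcr1 and Clec9a in BI replicate 5 (2.01 and 2.12), while Siglech runs from -0.52 to 1.80 and Zbtb46 stays close to 0.

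To compare levels between genes, CPM were divided by the deposited gene length in kilobases. On this scale Irf8 was far above the other members, at 34.2 ± 4.50 CPM per kilobase in vehicle-treated tumors (SD, n = 3) and 46.7 ± 2.08 in BI-treated tumors (SD, n = 6). Wdfy4 (3.12 ± 0.413), Zbtb46 (2.59 ± 0.264) and Batf3 (2.51 ± 0.522) followed in vehicle-treated tumors with overlapping ranges. Below a gap came Cd209a, Siglech, Irf4, Flt3, Xcr1 and Clec9a, between 1.04 and 0.548 CPM per kilobase, each overlapping its neighbor in the order. In BI-treated tumors the order opened at the top: Wdfy4 (6.54 ± 0.645) was above Batf3 (4.47 ± 0.568) and Batf3 above Zbtb46 (2.48 ± 0.309), with no overlap between these neighbors. The levels of Cd209a, Xcr1, Flt3, Irf4, Siglech and Clec9a, from 2.05 down to 1.31 CPM per kilobase, still overlapped from each to the next. Xcr1 moved from the ninth to the sixth place in this order.

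To set the members against genes that most leukocytes express, the same edgeR fit was repeated with libraries scaled to a constant mean log2 level of 12 pan-leukocyte genes (Ptprc, Cd53, Coro1a, Laptm5, Lcp1, Ptpn6, Was, Vav1, Dock2, Itgb2, Cd37 and Cd48). All 12 had risen on the first scale, by log2 fold changes of 0.29 to 0.96 with a median of 0.66, and the new scale moved the median of all genes to -0.63. Relative to these leukocyte genes, Xcr1 and Wdfy4 were still higher, Zbtb46 was lower, and the other 7 members did not pass the test. On this scale 2.46% of all genes tested rose and 76.5% fell. Xcr1 had a log2 fold change of 0.72 (SE 0.252, edgeR adjusted p = 0.0147) and Wdfy4 of 0.46 (SE 0.115, edgeR adjusted p = 0.00149). For Zbtb46 it was -0.69 (SE 0.152, edgeR adjusted p = 0.000503). Clec9a had 0.63 (SE 0.323, edgeR adjusted p = 0.0820) and Flt3 0.39 (SE 0.198, edgeR adjusted p = 0.0803), both from edgeR's quasi-likelihood test, and Irf8 changed sign to -0.16 (adjusted p = 0.120). Without vehicle replicate 2, the log2 fold change of Xcr1 was 0.61 with an adjusted p of 0.0646 in the same edgeR test, and 1 member rose instead of 2. Scaled to Itgax alone, Xcr1 was at 1.39 and the call of Zbtb46 was lost, with a log2 fold change of -0.018 (edgeR adjusted p = 0.9999). The pan-leukocyte genes moved unequally among themselves, 3 rising (Was, Vav1 and Cd48) and 3 falling (Cd53, Lcp1 and Itgb2) against their own mean.

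**Figure D3:**
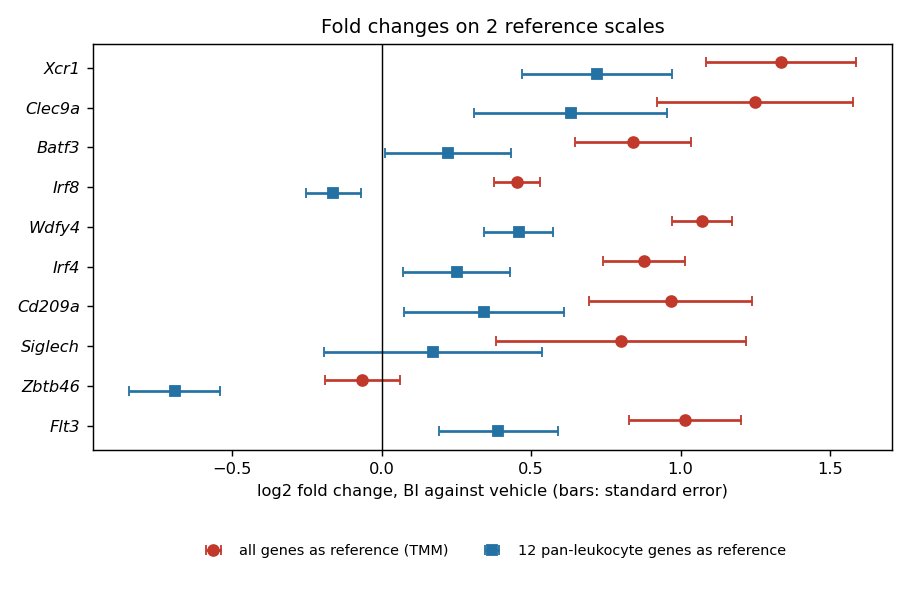
Log2 fold change of BI-treated against vehicle-treated tumors (horizontal axis, with standard errors) for each gene on the scale of all genes (red circles) and on the scale of 12 pan-leukocyte genes (blue squares). Xcr1 goes from 1.34 to 0.72, Irf8 from 0.45 to -0.16 and Zbtb46 from -0.07 to -0.69.

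Other genes of the same subsets were read from lists written for this purpose, on the scale of all genes, where 14.6% of genes rose and 14.1% fell. Of 12 other cDC1 genes, 7 rose (median log2 fold change 0.69), among them Cadm1, an adhesion molecule (51.3 ± 7.31 to 105.3 ± 13.2 CPM, log2 fold change 1.04, edgeR adjusted p = 8.73e-05). Naaa, a lysosomal amidase gene, rose by 0.81 and was the most abundant of the list in BI-treated tumors (Ppt1 in vehicle-treated ones), and Id2, an inhibitor of E proteins needed for dendritic cell development, rose by 0.71 on the log2 scale. Cd8a (log2 fold change 1.23) and Itgae (1.12) of this list are also T cell genes. Tlr3 and Ppt1 rose by only 0.22 and 0.20, and Nfil3, Rab7b, Snx22, Gpr33 and Itga8 did not pass the test. In vehicle-treated tumors, Cadm1, Naaa and Id2 averaged 51.3, 91.7 and 68.3 CPM, against 2.73 CPM for Xcr1. Which cells expressed them was not tested. Of 11 other cDC2 genes tested, 4 rose and 1 fell (median 0.31). Sirpa, the inhibitory receptor that marks cDC2 and macrophages, rose from 237 ± 19.6 to 387 ± 26.3 CPM (log2 fold change 0.70), the integrin gene Itgam by 0.53 and the lectin gene Clec10a by 1.26. Rbpj, the effector of Notch signaling, fell by 0.39 on the log2 scale, while its receptor gene Notch2 had a log2 fold change of 0.02.

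Of 13 other pDC genes tested, 7 rose and 1 fell (median 0.81). The nucleic acid receptor genes Tlr9 (10.8 ± 1.91 to 25.6 ± 4.11 CPM, log2 fold change 1.25) and Tlr7 (20.6 ± 2.44 to 36.0 ± 4.06 CPM, 0.81) rose, as did Lair1, an inhibitory collagen receptor gene (0.96), all 3 of which other leukocytes express as well. Of the less abundant genes, Ccr9 rose by 1.28, Pacsin1 by 1.35 and Cox6a2 by 1.21 on the log2 scale at 3.23, 0.873 and 1.01 CPM in BI-treated tumors, while Klk1 (0.83) and Ly6d (0.66) did not pass. Runx2 fell by 0.34, and Bst2 had a log2 fold change of -0.09. Tcf4, the master regulator of pDC but the most abundant gene of the list and widely expressed, stood at 392.5 ± 13.4 and 390 ± 41.7 CPM. Spib, another pDC regulator gene, had a log2 fold change of 0.72 (SE 0.438, edgeR adjusted p = 0.238).

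Of 10 genes shared by conventional dendritic cells, 7 rose (median 1.06). Jaml (39.2 ± 2.61 to 96.0 ± 9.03 CPM), a junctional adhesion molecule gene also expressed by T cells and myeloid cells, rose by 1.29, the inhibitory receptor gene Btla by 1.29 and Cd74, the invariant chain of MHC class II, by 1.08. Mycl, a MYC family factor used by cDC1, rose by 1.41 at 0.895 ± 0.429 CPM in vehicle-treated tumors against 2.42 ± 0.600 CPM after BI treatment. Itgax, which encodes CD11c, was at 27.3 ± 2.19 and 27.4 ± 7.23 CPM, with a log2 fold change of 0.01. Maturation genes were mixed: of 14 tested, 4 rose and 1 fell (median 0.27). Ccr7, the receptor that guides dendritic cells and naive T cells to lymph nodes, rose from 35.9 ± 7.51 to 75.9 ± 18.8 CPM (log2 fold change 1.08), and Cd83 by 0.79. Fscn1, an actin-bundling protein of mature dendritic cells and of carcinoma cells, fell from 433 ± 36.9 to 310 ± 40.4 CPM, a log2 fold change of -0.48. Of the costimulatory genes, Cd40 rose by 0.36 on the log2 scale, while Cd80 and Cd86 had log2 fold changes of 0.25 and 0.18 and did not pass.

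Of 11 ligand, growth factor and growth factor receptor genes tested, 4 rose (median 0.51). Ccl5, a chemokine gene of T and NK cells, rose from 10.2 ± 0.510 to 21.9 ± 4.86 CPM, and the GM-CSF receptor genes Csf2rb and Csf2ra rose by 0.59 and 0.51 on the log2 scale. Csf1, the macrophage growth factor gene and the most abundant of this list, had a log2 fold change of -0.17 that did not pass. Xcl1, the ligand gene of XCR1, was at 0.778 ± 0.371 and 1.26 ± 0.760 CPM, a log2 fold change of 0.66 with an SE of 0.494 (edgeR adjusted p = 0.342). Of 10 regulators of dendritic cell progenitors and commitment, 9 rose (median 0.76), with Csf1r at 0.91, Ikzf1 at 0.93 and Cebpa at 0.82 on the log2 scale, and Etv6 the gene that did not pass. On the pan-leukocyte scale, where 2.46% of all genes rose and 76.5% fell, the lists gave other counts. There 3 of the 12 other cDC1 genes rose and 4 fell, 1 of 11 cDC2 genes rose and 5 fell, and 2 of 13 pDC genes rose and 3 fell. Of the 10 genes shared by conventional dendritic cells, 6 rose and 2 fell on that scale. Maturation genes had 7 of 14 falling and 0 rising there in the edgeR test (median -0.36), with 1 (Ccr7, 0.46) higher at an unadjusted p of at most 0.05. Ligand and growth factor genes had 1 of 11 rising and 4 falling, and regulators 2 of 10 rising and 3 falling (median 0.14).

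**Figure D4:**
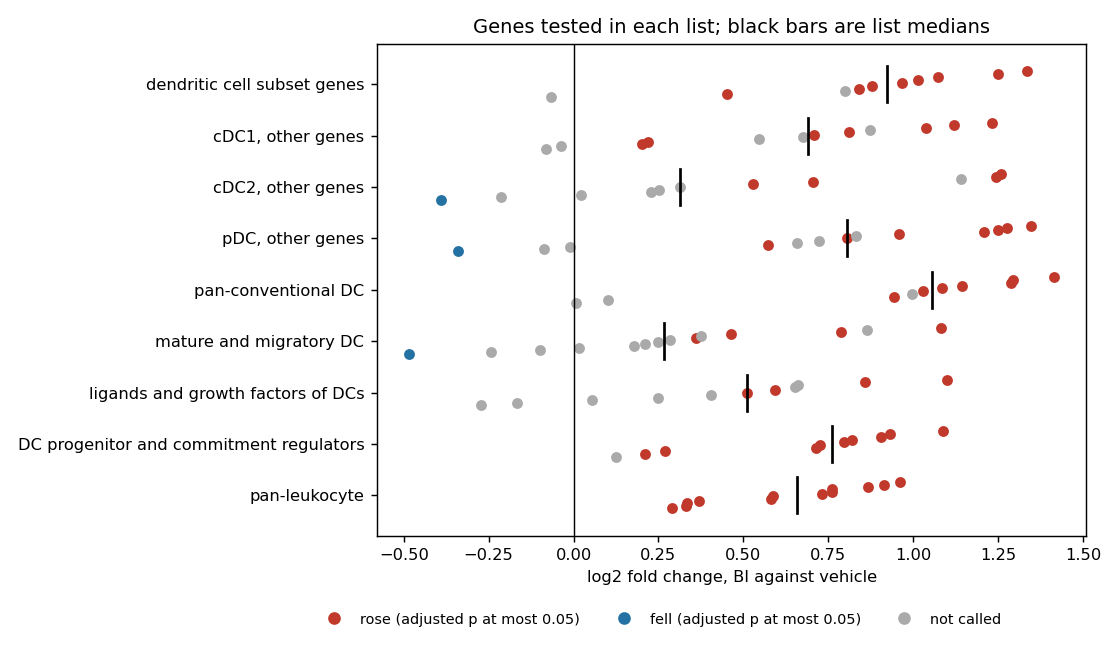
Log2 fold change of every gene tested (horizontal axis, 1 point per gene) in the dendritic cell lists and the pan-leukocyte list, colored by the call at an adjusted p of at most 0.05, with the list median as a black bar. Medians are 0.92 for the 10 subset genes, 1.06 for genes shared by conventional dendritic cells, 0.27 for maturation genes and 0.66 for pan-leukocyte genes.

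Markers of other cell types that express some of the members moved in the same tumors, and their part in the members' changes was not tested. Of 14 macrophage and monocyte genes, which include users of Irf8, 12 rose and 1 (Cd14) fell. Their summed level was 3214 to 4028 CPM in vehicle-treated tumors against 5516 to 7327 CPM after BI treatment, led by Lyz2, with C1qb up by 1.11, Adgre1 by 0.93 and Csf1r by 0.91 on the log2 scale. Of 9 T cell genes tested, 8 rose, with sums of 78.4 to 88.9 CPM against 143 to 202 CPM, led by Cd8a, with Cd3e up by 1.14 and Cd3g by 1.08. Of 7 NK cell genes, 6 rose, from 30.3 to 40.5 CPM in sum against 77.8 to 97.3 CPM, led by Prf1 (log2 fold change 1.37), with Klrk1 up by 1.27 and Klrb1c by 1.10. On the pan-leukocyte scale, where 2.46% of all genes rose and 76.5% fell, 5 of 14 macrophage and monocyte genes rose and 1 fell. There 6 of 9 T cell genes, 3 of 7 NK cell genes and 5 of 7 mast cell genes rose, and 0 fell. Of 9 neutrophil genes, 0 rose and 7 fell on that scale. Cd8a and Csf1r, and Kit and Esam in the lists below, also stand in a dendritic cell list.

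B cell genes, whose cells use Irf8, Irf4 and Wdfy4, summed to 8.85 to 12.1 CPM in vehicle-treated tumors against 13.4 to 21.5 CPM after BI treatment, led by Cd79a in the former and Cd22 in the latter. Of the 6 tested, 3 rose, among them Cd22 by 1.49 and Cd79b by 1.13 on the log2 scale, while Cd79a was at 3.54 and 2.83 CPM and did not pass. The defining markers Ms4a1 and Pax5 were close to 0, with Ms4a1 at 0.281 and 0.425 CPM and Pax5 at 0.0844 and 0.209 CPM in vehicle-treated and BI-treated tumors. The plasma cell genes, led by Sdc1, which epithelial cells express, summed to 567 to 651 CPM and 530 to 659 CPM. Of the 5 tested, Prdm1 rose by 0.77 and Xbp1 by 0.24, while Mzb1 was at 0.301 and 0.445 CPM. Endothelial genes, relevant to Zbtb46, summed to 204 to 229 CPM and 227 to 324 CPM, led by Pecam1, and 4 of 9 rose (Cdh5 by 0.41, Kdr by 0.38, Tie1 by 0.49 and Cldn5 by 0.54). On the pan-leukocyte scale, where 76.5% of all genes fell, 0 of these 9 rose and 4 fell (median -0.25).

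Of 9 neutrophil genes, 4 fell, with S100a9 at -1.30, Retnlg at -1.43 and Cxcr2 at -0.91 on the log2 scale, and the list summed to 1103 to 1270 CPM against 389 to 866 CPM, led by Mmp9. Of 9 epithelial genes, Krt8 and Krt18 fell (-0.28 and -0.50), with sums of 965 to 1190 CPM against 758 to 966 CPM and neither Cldn4 at -0.67 nor Epcam at 1.06 (2.13 to 4.42 CPM) passing the test. Mast cell genes had the highest median of the lists (2.93), with 6 of 7 rising, from 24.6 to 43.1 CPM in sum against 46.7 to 360 CPM, led by Kit in vehicle-treated and Tpsb2 (log2 fold change 3.25) in BI-treated tumors, with Cma1 at 3.10 and Kit at 0.71. Of the lymph node stroma genes, Cxcl13 rose by 3.05, Pdpn, the most abundant, had a log2 fold change of -0.20, and Glycam1 and Madcam1 were below 0.1 CPM in both groups. That list summed to 52.1 to 67.8 CPM and to 45.7 to 160 CPM.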

How the data were processed

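RNA sequencing counts of 9 tumors were used. The authors aligned paired reads to mm9 with STAR, keeping unique alignments, and counted with QuasR the reads starting in any exon of a RefSeq gene; the deposited values are these raw counts, with a gene length per row. Entrez identifiers were matched to RefSeq symbols for 18700 of 18755 genes, positions were read from GENCODE on mm9 and promoters from RefSeq on GRCm38.p6. The test on counts used edgeR 4.0.16 (R 4.3.3) with TMM normalization (factors 0.984 to 1.02; filterByExpr with a minimum count of 10 and total of 15; quasi-likelihood F test without covariates, Benjamini-Hochberg adjustment). Standard errors came from the F statistic. The pan-leukocyte scale used the same fit. Log2 CPM had a prior count of 2. The floor of 3 counts covers counting error only. Between pairs of tumors, chi-square per gene averaged 8.84 to 30.1 within groups, well above counting noise, so each library was counted once.

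The members and lists were chosen with earlier results of these data known. Besides the 10 members, the text names from each list the 3 genes with the smallest p and the most abundant one over all tumors, the 3 genes nearest in profile to Clec9a, Cd209a and Siglech, and further list genes chosen after their values were seen. Of 198 list entries, 4 matched no row (Ly6g, Klra8, Ccl19 and Ccl21a) and are not analysed here, and the values of some list and family genes are not reported here. Alternatives were RLE normalization, no filter on low counts, at least 1 CPM in at least 3 tumors, DESeq2 1.42.0, limma-voom (limma 3.58.1), the study's cutoffs, scaling to Ptprc or Itgax, and leaving out each tumor.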

Additional observations from a re-analysis of the deposited data

Results flagged for a closer look

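In 4 members, 1 BI-treated tumor lay further from the other 5 than Dixon's 95% critical value for 6 samples allows. Chance flags about 1 in 20 groups, and 10 were examined. BI replicate 5 was set apart for Xcr1 (11.2 CPM, next 7.46 CPM), Clec9a (8.13 CPM, next 4.54 CPM) and Irf4 (7.87 CPM, next 6.61 CPM). Without it, the log2 fold changes were 1.15, 0.97 and 0.82, with edgeR adjusted p of 0.000923, 0.00668 and 0.00117. BI replicate 7 was set apart for Batf3 (4.00 CPM, next 3.08 CPM), whose log2 fold change without it was 0.76 (edgeR adjusted p = 0.0172). The highest Siglech value, in BI replicate 4, did not pass this limit (ratio 0.564), and without that tumor the log2 fold change of Siglech was 0.47.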

How the results depend on the processing

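The number of rising members was 8 under RLE normalization, both other filters, DESeq2 and limma-voom, and with vehicle replicate 3 or any single BI-treated tumor left out, 7 without vehicle replicate 1 or at the cutoffs of the study, and 6 without vehicle replicate 2. Over all genes, the cutoffs of the study gave 1337 rising and 498 falling genes in place of 2040 and 1973. Leaving out each tumor gave 1332 to 2026 rising and 1172 to 1980 falling genes, both lowest without vehicle replicate 3, and 1289 genes fell without vehicle replicate 1. The log2 fold change of Zbtb46 ran from -0.13 (without vehicle replicate 2) to 0.017 (without vehicle replicate 3). On the pan-leukocyte scale, 1 to 3 members rose with each tumor left out. Scaled to Itgax alone, 4 rose (Clec9a and Flt3 besides Xcr1 and Wdfy4), 0 fell, and Irf8 was at 0.53. On the pan-leukocyte scale Siglech ran from -0.16 (without BI replicate 4) to 0.33 (without BI replicate 6), with -0.015 without vehicle replicate 2. Clec9a on that scale ran from 0.32 (edgeR adjusted p = 0.229, without BI replicate 5) to 0.81, and passed without BI replicate 4 or 9. The causes were not tested. No paired analysis was possible because the labels give no pairing or litter, and the replicate numbers only follow the order of the deposited columns. Depth limits the precision of genes with few counts, such as Xcl1 (8 to 44 counts per tumor).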

Other observations

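Relatives of the members by gene family, chosen after the members' values had been seen, were read from the same fit. Among interferon regulatory factor genes, those that rose besides Irf4 and Irf8 were Irf5 (49.7 to 81.3 CPM, log2 fold change 0.71), a factor of macrophages and dendritic cells, Irf7 (0.57) and Irf2 (0.21). Irf1, Irf3 and Irf9 did not pass, with log2 fold changes of 0.02, 0.10 and -0.04. Of the BATF genes, Batf, which T cells use, rose by 0.99 (4.47 to 8.91 CPM) and Batf2 by 0.50, beside the 0.84 of Batf3. Over all genes tested, 14.6% rose. On the pan-leukocyte scale, Batf rose by 0.37 (edgeR adjusted p = 0.0334), while Batf2 (-0.12) and Batf3 (0.22) did not pass.

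Of the CD209 genes next to Cd209a, Cd209e rose (0.435 to 1.52 CPM, log2 fold change 1.83), while Cd209c, Cd209d, Cd209f and Cd209g did not pass and Cd209b was not tested, all at about 1 CPM or less. Among sialic acid-binding lectins, Siglec1, the macrophage receptor CD169, rose from 65.6 ± 10.2 (SD, n = 3) to 182 ± 30.4 CPM (SD, n = 6), a log2 fold change of 1.48, with Cd33 at 0.86, Siglece at 0.90 and Mag at 1.08, while Siglech (0.80), Siglecf (0.65) and Siglecg (0.50) did not pass.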
